A study of Macaca mulatta with 11 samples.

Results

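Interleukin-1 beta (IL1B), its receptor antagonist (IL1RN), the decoy receptor IL1R2 and the related receptor IL1RL1 were followed in cumulus cells of the rhesus monkey, the somatic companions of the oocyte. The 4 genes were chosen by their symbols, with earlier results of these arrays known, so their levels in the 3 groups are given as a description without a test. They hold 14 of the 24956 probe sets that carry 1 gene symbol (a probe set is the group of short probes that reads 1 transcript), and they are 4 of 14132 genes. The study compared cumulus cells after in vitro and in vivo maturation of the cumulus-oocyte complex to find cumulus markers of oocyte quality, with the cells before maturation as the start of both. The PM group (pre-maturation, n = 4) came from immature complexes after stimulation with follicle-stimulating hormone (FSH) only. In the IVM group (n = 3) FSH was followed by maturation of the complexes in culture. In the VVM group (n = 4) maturation took place in the animal, with FSH and then human chorionic gonadotropin (hCG), which acts on the receptor of luteinizing hormone. All 3 groups therefore shared the FSH treatment. The labels give no ages and do not say whether different animals supplied the replicates, so spreads and p-values measure only the differences between these samples.

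IL1B encodes a secreted cytokine that myeloid cells make as a precursor and that caspase-1 cuts to its active form. Interleukin-1 acts through IL1R1, which pairs with the accessory protein IL1RAP, recruits MYD88 and IRAK kinases and activates NF-kB and MAP kinases. IL1RN binds the same receptor without signalling, and IL1R2 binds interleukin-1 but lacks the signalling domain, so both restrain the pathway. IL1RL1, also called ST2, pairs with IL1RAP to receive IL-33, and its soluble form traps that cytokine. Ovulation resembles an inflammatory reaction in many respects, and the preovulatory follicle is a known site of interleukin-1 production. Probe sets for IL1R1, MYD88, IRAK4, RELA, CASP1 and PTGS2 were not analysed here.

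All levels are log2 of the deposited intensity. The array medians lay between 5.34 and 5.53, a range that serves as a guide to which levels are dim, since no detection calls were used here. Markers of cumulus and granulosa cells were bright on average, with a mean over 12 genes of 9.73 to 9.89 in PM, 9.21 to 9.69 in IVM and 8.29 to 8.85 in VVM. Not each gene was bright on each array, as HAS2 read 4.35 to 4.72 on PM 1, PM 3 and PM 4 and INHBB 5.06 on VVM 1. By limma, 9 of the 12 were lower and 1 higher in VVM than in PM, beside 21.8% lower and 18.0% higher of all genes. For IVM against PM, 6 were lower and 2 higher, beside 20.9% and 25.0%. Against VVM the IVM group had 7 higher and 0 lower, beside 9.06% and 7.63%. The array PM 1 stood apart by its oocyte markers, with a mean over 8 genes of 7.37 against 5.00 to 5.64 on the other 10 arrays. VVM 2 and VVM 3 stood apart by leukocyte genes, as given below. In bulk RNA, more cells of a type and more RNA per cell cannot be told apart.

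IL1B lay lowest before maturation and highest after maturation in the animal, with a wide spread among the matured arrays. Its brightest probe set, MmuSTS.652.1.S1_s_at, read 6.25, 6.28, 6.14 and 6.24 on PM arrays 1 to 4. It read 9.53, 6.75 and 6.62 on IVM arrays 1 to 3 and 7.29, 11.58, 11.68 and 9.93 on VVM arrays 1 to 4. Every matured array lay above every PM array, while IVM 1 lay above VVM 1, so that the IVM and VVM ranges overlapped. The PM mean was 6.23 ± 0.06 (SD, n = 4), the IVM mean 7.63 ± 1.64 (SD, n = 3) and the VVM mean 10.12 ± 2.05 (SD, n = 4). The log2 difference was 3.89 ± 0.90 (SE) for VVM against PM, which is 14.8-fold, 1.40 ± 0.97 (SE) for IVM against PM and -2.49 ± 0.97 (SE) for IVM against VVM. By this probe set the IVM difference from PM rested largely on 1 array and was 0.46 without IVM 1. This did not hold equally for the other IL1B probe sets. In MmuSTS.652.1.S1_at, IVM 2 and IVM 3 read 6.85 and 6.01, against 4.29 on the highest PM array. In the remaining probe set they read 6.88 and 5.72, against 5.40 on the highest PM array.

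The other IL1B probe sets ordered the arrays in a like way, with correlations of 0.936 to 0.965 among the 3 over the same 11 arrays. MmuSTS.652.1.S1_at spanned the widest range, with 4.29, 4.02, 3.37 and 3.24 in PM, 10.60, 6.85 and 6.01 in IVM and 7.50, 12.52, 12.69 and 10.98 in VVM. Its PM levels were below all array medians, so the size of its difference from PM (7.19 ± 1.16 SE for VVM, 4.09 ± 1.25 SE for IVM) depends on a dim signal. The third probe set read 5.14 to 5.40 in PM, 7.16, 6.88 and 5.72 in IVM and 5.59, 9.29, 9.01 and 7.57 in VVM. In all 3 probe sets IVM 1 was the highest IVM array and VVM 1 the lowest VVM array.

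**Figure D1:**
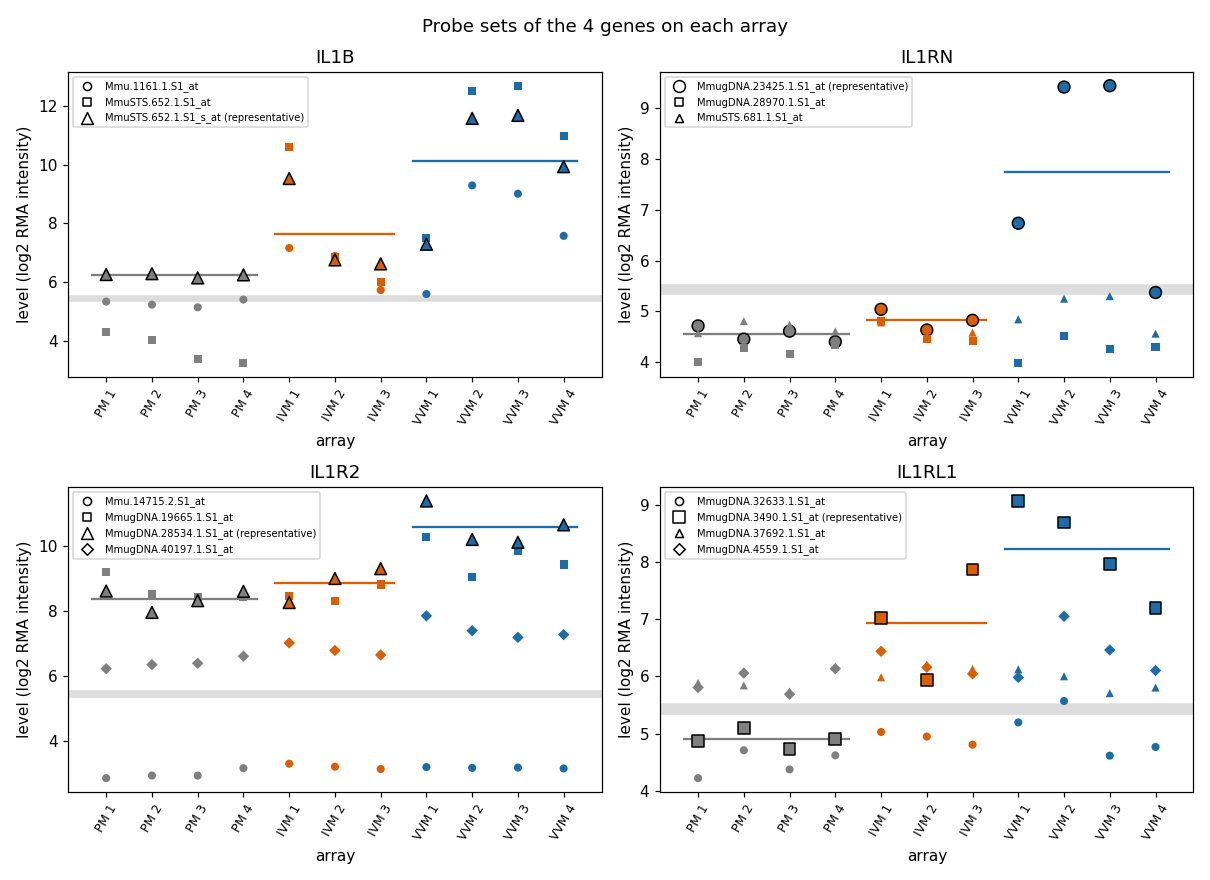
Level of each of the 14 probe sets (log2 intensity, y axis) on each of the 11 arrays (x axis), 1 panel per gene, with PM in grey, IVM in orange and VVM in blue. Large outlined symbols mark the brightest probe set of a gene, horizontal lines its group mean, and the grey band the range of array medians (5.34 to 5.53). By the brightest probe sets, IL1B and IL1RN peak on VVM 2 and VVM 3, and IL1R2 and IL1RL1 on VVM 1.

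IL1RN, the antagonist, was dim on all PM and IVM arrays and lay above the array medians on VVM arrays 1 to 3. MmugDNA.23425.1.S1_at read 4.71, 4.45, 4.61 and 4.40 in PM and 5.04, 4.63 and 4.83 in IVM. It read 6.74, 9.41, 9.44 and 5.37 in VVM, so VVM 2 and VVM 3 were high, VVM 1 intermediate and VVM 4 just above the highest IVM array. The VVM range overlapped neither of the other ranges, and the PM and IVM ranges overlapped. The log2 difference was 3.20 ± 0.75 (SE) for VVM against PM, or 9.16-fold, -2.91 ± 0.81 (SE) for IVM against VVM, or 7.50-fold, and 0.29 ± 0.81 (SE) for IVM against PM. Since the PM and IVM levels were dim, these folds depend on the signal near background.

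The remaining IL1RN probe sets stayed dim, between 3.99 and 5.30 on all arrays. MmuSTS.681.1.S1_at ordered the arrays much as the brightest one did (r = 0.921 over 11 arrays) over a narrow range, with 5.25 and 5.30 on VVM 2 and VVM 3. MmugDNA.28970.1.S1_at did not follow it (r = 0.02) and was highest on IVM 1 at 4.81. The large IL1RN difference was thus read by 1 of 3 probe sets.

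IL1R2, the decoy receptor, was well above the array medians in all groups and higher in VVM than in the others. MmugDNA.28534.1.S1_at read 8.62, 7.96, 8.32 and 8.61 in PM, 8.26, 9.01 and 9.31 in IVM and 11.40, 10.22, 10.13 and 10.67 in VVM. The lowest VVM array lay above the highest IVM array, and the PM and IVM ranges overlapped. Group means were 8.38 ± 0.31 (SD, n = 4), 8.86 ± 0.54 (SD, n = 3) and 10.60 ± 0.58 (SD, n = 4). The log2 difference was 2.22 ± 0.30 (SE) for VVM against PM, or 4.67-fold, -1.74 ± 0.32 (SE) for IVM against VVM, or 3.34-fold, and 0.48 ± 0.32 (SE) for IVM against PM. Its spread within VVM was much narrower than that of IL1B or IL1RN, and its highest array, VVM 1, was the lowest VVM array for IL1B.

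A pair of further IL1R2 probe sets also had their highest mean in VVM. MmugDNA.19665.1.S1_at read 9.20, 8.52, 8.43 and 8.44 in PM, 8.47, 8.32 and 8.82 in IVM and 10.30, 9.07, 9.87 and 9.44 in VVM. Its IVM mean of 8.54 lay just below its PM mean of 8.65. Its PM and VVM ranges overlapped through PM 1, and its IVM and VVM ranges did not overlap. MmugDNA.40197.1.S1_at read 6.22 to 6.61 in PM, 6.64 to 7.02 in IVM and 7.19 to 7.85 in VVM, with no overlap between any of the groups. The fourth IL1R2 probe set stayed between 2.84 and 3.28, far below the array medians, and carried no difference above 0.24.

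IL1RL1, the IL-33 receptor, was dim before maturation and higher after both kinds of maturation by 1 of its 4 probe sets. MmugDNA.3490.1.S1_at read 4.87, 5.10, 4.73 and 4.90 in PM, 7.02, 5.94 and 7.87 in IVM and 9.07, 8.69, 7.96 and 7.20 in VVM. All matured arrays lay above all PM arrays, and the IVM and VVM ranges overlapped, since IVM 3 lay above VVM 4. The log2 difference was 3.33 ± 0.43 (SE) for VVM against PM, or 10.05-fold, and 2.04 ± 0.46 (SE) for IVM against PM, or 4.11-fold. Between IVM and VVM it was -1.29 ± 0.46 (SE), and -0.79 to -1.75 when 1 array was left out.

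The remaining IL1RL1 probe sets moved little, with all levels between 4.22 and 7.05, and 2 of them were above the array medians on every PM array (5.69 to 6.16). MmugDNA.4559.1.S1_at was highest on VVM 2 at 7.05, and MmugDNA.32633.1.S1_at on the same array at 5.57. MmugDNA.37692.1.S1_at was highest on IVM 2 at 6.21 and had group means of 5.91, 6.11 and 5.91 in PM, IVM and VVM. Averaged over all 4 probe sets, the log2 difference was 1.09 for VVM against PM and 0.74 for IVM against PM. Which IL1RL1 transcripts each probe set reads, membrane-bound or soluble, was not analysed here.

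Under the threshold used for the whole table (limma, Benjamini-Hochberg adjusted p below 0.05 over 52766 probe sets), 8 of the 14 probe sets were higher and 0 lower in VVM than in PM. Over all probe sets, 16.7% were higher and 14.5% lower in that comparison. For IVM against PM, 2 were higher (1 of IL1B and 1 of IL1RL1) and 0 lower, against 25.3% higher and 15.4% lower in the table. For IVM against VVM, 0 were higher and 4 lower (3 of IL1R2 and 1 of IL1RN), against 5.62% higher and 5.73% lower. The genes were chosen with these differences known, so the counts support nothing. The PM arrays serve both comparisons with PM, and the IVM arrays both comparisons with IVM.

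**Figure D2:**
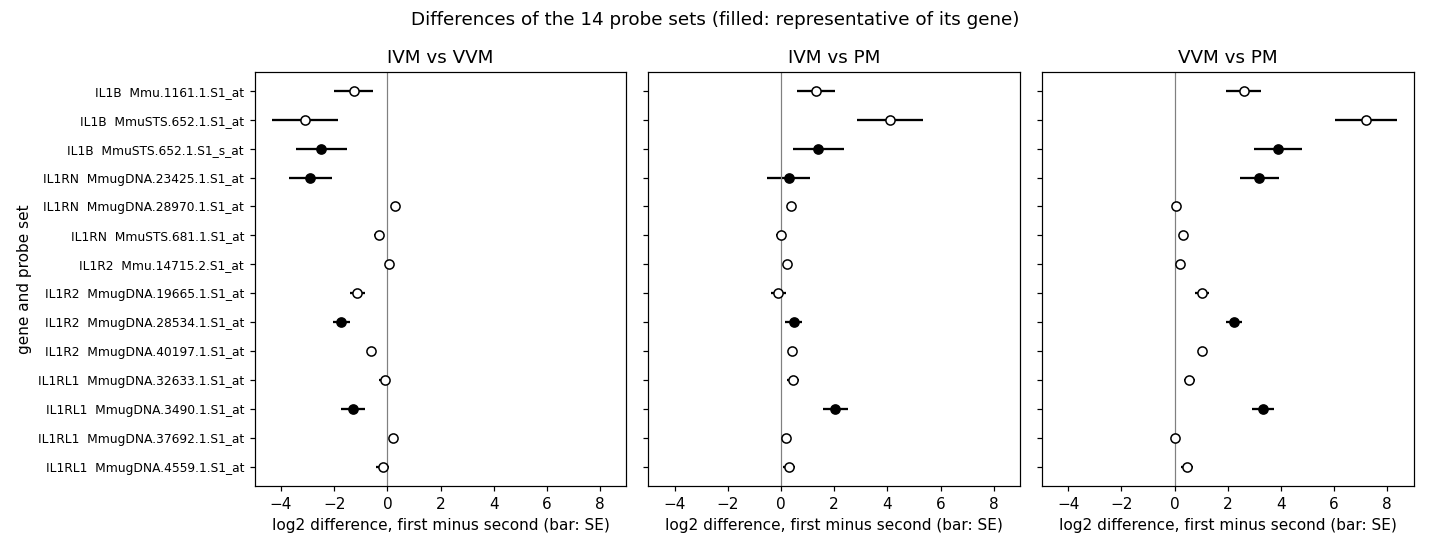
Log2 difference (x axis, first group minus second) with its standard error (bar) for each of the 14 probe sets (y axis) in the 3 comparisons. Filled symbols are the brightest probe set of each gene. For VVM against PM they lie between 2.22 and 3.89, and for IVM against VVM between -2.91 and -1.29.

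By their brightest probe sets the 4 genes did not share 1 pattern across the VVM arrays. IL1B and IL1RN were highest on VVM 2 and VVM 3, and IL1R2 and IL1RL1 on VVM 1. Other probe sets departed from this: MmugDNA.4559.1.S1_at of IL1RL1 correlated at r = 0.771 to 0.855 with the 3 probe sets of IL1B and at r = 0.573 with the brightest of its own gene. Over the 11 arrays, which share their group structure, the brightest probe sets of IL1B and IL1RN correlated at r = 0.835 and those of IL1R2 and IL1RL1 at r = 0.819. The lowest of the 6 correlations was that of IL1B with IL1R2, at r = 0.512.

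Leukocytes express IL1B, IL1RN and IL1R2, and leukocyte genes were unevenly present. LYZ, the secreted lysozyme of myeloid cells, read 3.32 to 4.10 on the PM and IVM arrays and 5.10, 7.62, 9.51 and 4.79 on VVM 1 to 4. TYROBP, an adaptor of myeloid receptors, read 4.51 to 5.11 on PM and IVM arrays and 6.51, 8.14, 9.90 and 6.25 in VVM. CD14 read 5.10 to 5.63 in PM, 5.44 to 6.11 in IVM and 6.05, 7.26, 8.82 and 6.13 in VVM. PTPRC, the pan-leukocyte CD45 gene, read 3.49 to 3.87 in PM, 3.80 to 4.23 in IVM and 3.98, 6.89, 6.58 and 4.27 in VVM. For CD14 and PTPRC, VVM 1 lay below the highest IVM array and VVM 4 just above it. The mean of these 4 genes was 4.23 to 4.56 in PM, 4.50 to 4.70 in IVM and 5.41, 7.48, 8.70 and 5.36 on VVM 1 to 4. VVM 2 and VVM 3, with the most leukocyte signal, were thus the arrays with the most IL1B and IL1RN, and the VVM arrays with the least IL1R2 by its brightest probe set. IVM 1 departed from this order, with IL1B at 9.53 and a leukocyte mean of 4.70.

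These 4 genes were picked from a list of 15 measured monocyte and macrophage genes with earlier results of these arrays known, and not all of the list moved with them. CSF1R fell by 2.04 ± 0.52 (SE) in IVM and 2.57 ± 0.48 (SE) in VVM against PM, ITGAM fell by 0.59 ± 0.19 (SE) and 0.63 ± 0.18 (SE), and MRC1 fell by 1.25 ± 0.34 (SE) in IVM.

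By the lists of cell markers, 9 of 15 measured monocyte and macrophage genes were higher and 2 lower in VVM than in PM by limma, and against VVM the IVM arrays had 0 higher and 3 lower (LYZ, TYROBP and MAMU-DRA). For IVM against PM, 3 were higher and 3 lower. Over all genes, 18.0% were higher and 21.8% lower in VVM against PM, 25.0% and 20.9% in IVM against PM, and 9.06% and 7.63% in IVM against VVM, so the 3 and 3 of 15 lay near the share of all genes. The summed linear intensity of the 15 genes ran from 3320 to 5436 in PM, 1646 to 2563 in IVM and 1957 to 7799 in VVM. CSF1R and MRC1 carried much of that sum before maturation, at 9.95 to 10.21 and 10.68 to 11.87 in PM, where LYZ, TYROBP and PTPRC were all below the array medians. Of 11 neutrophil genes, 5 were higher in VVM than in PM and 4 in IVM than in PM, beside those 18.0% and 25.0% of all genes, and none was called between IVM and VVM, where 1 had an unadjusted p below 0.05. Their summed intensity was 373 to 405 in PM, 517 to 550 in IVM and 471 to 812 in VVM, with S100A8 and S100A9 above the array medians only on VVM 2 and VVM 3. Of 4 measured mast cell genes, a cell type known for IL1RL1, 2 were higher in IVM than in PM and 1 in VVM than in PM, again beside 25.0% and 18.0% of all genes. None was called between IVM and VVM, where 1 had an unadjusted p below 0.05. Their summed intensity was 68.8 to 73.5 in PM, 71.5 to 94.3 in IVM and 71.0 to 80.9 in VVM, and their part in the IL1RL1 levels was not tested.

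Some markers of other cells also moved with VVM. HBB, a haemoglobin chain of red cells, read 7.23 to 7.81 in PM, 6.25 to 6.89 in IVM and 9.57, 9.89, 8.15 and 9.59 in VVM. VWF, an endothelial gene, read 5.52 to 5.96 in PM, 6.02 to 6.65 in IVM and 8.38, 7.88, 9.52 and 6.54 in VVM. Limma called both higher in VVM than in PM or IVM, and their part in the differences of the 4 genes was not tested. Their lists did not all move with them. ALAS2, the only other measured gene of red cells, read 6.43 to 8.10 in PM and 6.68 to 7.08 in VVM. Of 7 endothelial genes, 3 were higher and 0 lower in VVM than in PM, beside 18.0% and 21.8% of all genes. Against VVM, the IVM arrays had 0 of the 7 higher and 1 lower, beside 9.06% and 7.63%.

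The 4 genes differed in how their values moved with these arrays. With the leukocyte mean as a covariate in the limma fit, the log2 difference of VVM from PM was 1.43 for IL1B, 0.52 for IL1RN, 2.92 for IL1R2 and 3.31 for IL1RL1. With PM 1, VVM 2 and VVM 3 left out, it was 2.39 for IL1B, 1.56 for IL1RN, 2.74 for IL1R2 and 3.22 for IL1RL1. For IVM against VVM the covariate gave -0.25, -0.48, -2.37 and -1.27, and leaving out those arrays gave -0.98, -1.22, -2.17 and -1.19, in the same order of genes. The IL1B and IL1RN differences were smaller in both settings, and those of IL1R2 were as large or larger. By the brightest probe sets, which these fits used, VVM 2 and VVM 3 were the VVM arrays highest in IL1B and IL1RN and lowest in IL1R2. Other IL1R2 probe sets departed from this. MmugDNA.19665.1.S1_at read 9.87 on VVM 3 and 9.44 on VVM 4, and MmugDNA.40197.1.S1_at 7.40 on VVM 2 and 7.27 on VVM 4. Leaving out VVM 2 and VVM 3 therefore lowers the VVM means of IL1B and IL1RN by construction. It raises that of IL1R2 by its brightest probe set. The covariate is highest on the same arrays, so these shifts are a description only. The covariate differs between the groups itself, so its part cannot be told apart fully from that of the group.

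**Figure D3:**
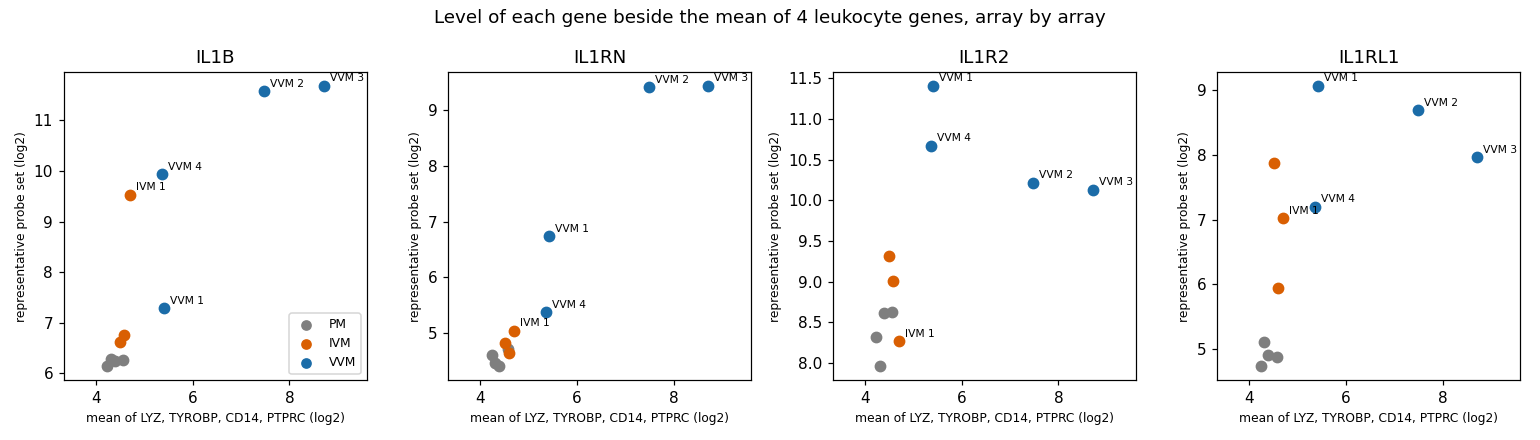
Level of the brightest probe set of each gene (log2, y axis) against the mean log2 level of LYZ, TYROBP, CD14 and PTPRC (x axis), 1 point per array, with PM in grey, IVM in orange and VVM in blue. VVM 2 and VVM 3, at 7.48 and 8.70 on the x axis, hold the highest IL1B and IL1RN and the lowest IL1R2 of the VVM arrays, and IVM 1 has IL1B at 9.53 with a leukocyte mean of 4.70.

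The rest of the pathway was read through 7 lists of 90 genes, of which 67 were measured and none is one of the 4. Against VVM, limma called 3 higher and 7 lower in IVM, where all genes gave the same 9.06% and 7.63%. For IVM against PM, 15 were higher and 11 lower, against 25.0% and 20.9% of all genes. For VVM against PM, 23 were higher and 7 lower, against 18.0% and 21.8%. The median log2 difference over the lists was -0.05, 0.21 and 0.20 in these comparisons, beside 0.08, 0.12 and 0.04 over all genes. With each array centred on its median the splits were 1 higher and 7 lower, 11 and 14, and 14 and 7. Fewer genes were then called higher in each comparison, and the balance of directions turned only for IVM against PM. The shares of all genes under this scaling are not given here. The VVM against PM count of 30 calls was 19 without PM 1, 11 with the leukocyte covariate and 13 without PM 1, VVM 2 and VVM 3.

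Among 8 other ligands and antagonists, limma called none between IVM and VVM by the brightest probe sets, where 2 had an unadjusted p below 0.05. For IL37, 1 of its 3 probe sets, not the brightest, was called higher in IVM than in VVM. IL33, the ligand of IL1RL1, read 2.33 to 2.82 on all arrays, far below the array medians, with differences of 0.11 ± 0.13 (SE) for IVM and 0.12 ± 0.12 (SE) for VVM against PM. IL1A, the other agonist of the interleukin-1 receptor, read 3.23 to 4.32, and IL18 lay between 3.68 and 6.37 with its highest value on VVM 2. IL36G read 3.52 to 3.98 and was called in no comparison. Of the interleukin-36 and interleukin-37 genes, IL37 rose by 0.63 ± 0.14 (SE) and IL36B by 0.58 ± 0.13 (SE) in IVM against PM, the former a call lost when probe sets marked for cross-hybridization, its brightest among them, were left out. The calls of IL36A (0.41) and IL36RN (0.31) in IVM, and of IL1A (0.51) and IL37 (0.45) in VVM, were lost with the arrays centred on their medians. They were also lost without any of PM 1, PM 2, PM 4 or IVM 2 for IL36A (0.28 to 0.48 over single arrays left out) and without any single array but IVM 3 and VVM 4 for IL36RN (0.24 to 0.38). The IL1A call was lost without any of PM 1, PM 2, PM 4, VVM 2, VVM 3 or VVM 4 (0.39 to 0.60) and that of IL37 in VVM without PM 1, PM 4 or VVM 4 (0.38 to 0.52). The leukocyte covariate also ended both of these VVM calls.

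Of 5 other receptors of the family, IL1RAPL1, a neuronal relative, fell by 1.61 ± 0.30 (SE) in IVM against PM (limma adjusted p = 0.00185). It was also lower in IVM than in VVM, by -1.21 ± 0.30 (SE, adjusted p = 0.0245), a call lost without IVM 2, IVM 3, VVM 2 or VVM 3 in turn, with differences of -1.05 to -1.36 over all single arrays left out, and lost with the leukocyte covariate. IL1RAP, the accessory chain that both IL1R1 and IL1RL1 use, read 4.73 to 5.30 on all arrays, with differences of 0.12 ± 0.14 (SE) for IVM and 0.18 ± 0.13 (SE) for VVM against PM. IL1RL2 and IL18RAP passed no test, and IL1RAPL2 rose by 0.51 ± 0.14 (SE) in VVM against PM. That call was lost without VVM 2 (0.41 to 0.58 over single arrays left out) and with the leukocyte covariate.

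Among 9 genes of cytokine processing and the inflammasome, the complex that activates caspase-1, AIM2 and CASP4 rose in both matured groups. AIM2, a sensor of cytosolic DNA, read 7.71 to 9.48 in PM, 10.16 to 11.78 in IVM and 11.57 to 12.09 in VVM, a log2 rise of 2.66 ± 0.44 (SE) and 3.27 ± 0.40 (SE) against PM. It was called by 1 of its 4 probe sets in each comparison. CASP4, an inflammatory caspase, rose by 1.48 ± 0.28 (SE) in IVM and 2.36 ± 0.26 (SE) in VVM. Averaging the probe sets gave 0.79 and 1.22 for AIM2 and 0.85 and 1.51 for CASP4, all still called. NLRP3, the sensor best known for interleukin-1 beta release, read 5.13, 7.70, 8.06 and 5.92 on VVM 1 to 4 and 4.69 to 5.64 elsewhere, high on the arrays with leukocyte genes. Its rise of 1.55 ± 0.54 (SE) against PM (adjusted p = 0.0491) was lost without any single array but VVM 1 and VVM 4 (1.10 to 2.08) and turned to -0.36 with the leukocyte covariate.

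Of 11 receptor-proximal genes, TRAF6, the ubiquitin ligase below MYD88, fell by 1.37 ± 0.20 (SE) in IVM and 1.63 ± 0.19 (SE) in VVM against PM. UBE2N, the conjugating enzyme that works with TRAF6, fell by 0.97 ± 0.20 (SE) and 0.90 ± 0.18 (SE), the VVM call being lost with the leukocyte covariate. PELI1, a ligase acting on IRAK kinases, fell by 1.26 ± 0.24 (SE) in IVM and by 0.82 ± 0.23 (SE) in VVM. The VVM call was lost without PM 1 or VVM 3 (-0.94 to -0.69 over single arrays left out) and with the leukocyte covariate. PELI2 differed in direction between the matured groups, at 10.47 to 10.81 in PM, 9.50 to 10.17 in IVM and 10.72 to 11.53 in VVM. It was lower in IVM than in VVM by -1.38 ± 0.20 (SE, adjusted p = 0.00203), while its call against PM was lost without IVM 2 in IVM (-0.95 to -0.61 over single arrays left out) and without any of PM 1, PM 2, PM 4, VVM 1, VVM 3 or VVM 4 in VVM (0.49 to 0.76). The VVM call of PELI2 against PM was also lost with the leukocyte covariate. ECSIT was higher in IVM than in VVM by 0.50 ± 0.15 (SE), a call lost without any single array but PM 1 and PM 4 (0.44 to 0.56).

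Of 11 genes of the NF-kB module, NFKBIZ, an inducible nuclear IkB protein, fell by 3.41 ± 0.74 (SE) in IVM against PM, and its VVM difference from PM was not called. It read 10.34, 7.94, 8.23 and 10.04 in PM, 6.54, 4.88 and 5.77 in IVM and 7.70, 9.81, 10.39 and 8.37 in VVM. Its IVM against VVM difference of -3.34 ± 0.74 (SE, adjusted p = 0.0150) was -2.91 without IVM 2, where it was not called, and -2.30 without PM 1, VVM 2 and VVM 3 (adjusted p = 0.0814). It was -1.63 with the leukocyte covariate (adjusted p = 0.287, the highest over the alternatives). Averaging its probe sets ended both NFKBIZ calls, at -2.38 against VVM and -1.66 against PM. BCL3, a related IkB protein, rose by 1.57 ± 0.19 (SE) in IVM against PM and was higher there than in VVM by 1.05 ± 0.19 (SE). It was also called higher in VVM than in PM (0.40 to 0.64 over single arrays left out). That call was lost without any of PM 1, PM 2, PM 4, IVM 1 or VVM 1 to 3. It was also lost with the arrays centred on their medians and with the leukocyte covariate, and the difference was as low as 0.20 over all alternatives. IKBKB, the kinase that marks IkB for destruction, fell by 0.80 ± 0.19 (SE) in IVM, a call lost when quantile normalization was applied again, and 0.94 ± 0.18 (SE) in VVM. NFKBIB rose by 0.56 ± 0.13 (SE) in IVM. TNFAIP3, a feedback inhibitor, rose by 1.02 ± 0.34 (SE) in VVM, a call lost without any of PM 1 to 3 or VVM 1 to 3 (0.84 to 1.32). It was also lost with the arrays centred on their medians and with the leukocyte covariate. The TNFAIP3 difference was as low as 0.22 over all alternatives. NFKB1 fell by 0.68 ± 0.20 (SE) in VVM, a call lost without any of PM 1 to 3, VVM 1 or VVM 4 (-0.79 to -0.60). NFKBIE was higher in IVM than in VVM by 0.70 ± 0.20 (SE), a call lost without any single array but PM 2, VVM 2 and VVM 3 (0.57 to 0.81).

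Of 8 genes of the MAP kinase arm, MAP3K3 was lower in IVM than in VVM by -0.83 ± 0.12 (SE, adjusted p = 0.00150). Against PM, MAP3K3 was called lower in IVM (-0.46 to -0.35) and higher in VVM (0.39 to 0.51 over single arrays left out). The IVM call was lost without PM 4 or IVM 2, and the VVM call with the leukocyte covariate. MAP2K7, a kinase of JNK, rose by 0.98 ± 0.12 (SE) in IVM and 0.89 ± 0.11 (SE) in VVM against PM, and MAPK8, which encodes a JNK, rose by 0.84 ± 0.16 (SE) in IVM, a call lost when its probe sets were averaged. FOS, an immediate early gene, fell by 2.07 ± 0.57 (SE) in IVM against PM, a call lost without IVM 2, where the difference was -1.56. In VVM against PM, MAPKAPK2 (0.39 to 0.57) and MAPK8 (0.37 to 0.53 over single arrays left out) were called higher. Both calls were lost with the leukocyte covariate. That of MAPK8 was also lost without any of PM 1 to 4, IVM 2, VVM 1, VVM 2 or VVM 4.

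Of 15 genes known to respond to interleukin-1, 8 rose and 1 fell in VVM against PM, 4 rose and 2 fell in IVM against PM, and in IVM against VVM 0 were higher and 3 lower. The shares of all genes were 18.0% higher and 21.8% lower, 25.0% and 20.9%, and 9.06% and 7.63% in these comparisons, so the IVM against PM counts lay near the background. PTX3, a pentraxin of the cumulus matrix, read 2.63 to 2.76 in PM, 6.54, 3.89 and 2.94 in IVM and 9.15, 9.63, 10.97 and 7.70 in VVM. Its IVM against VVM difference was -4.90 ± 0.81 (SE, adjusted p = 0.00340), and -3.25 with the leukocyte covariate (adjusted p = 0.0729, the highest over the alternatives). On the IVM arrays PTX3 had the order of IL1B, with IVM 1 highest and IVM 3 lowest, though IVM 2 and IVM 3 were dim. On the VVM arrays the orders differed, with PTX3 lowest on VVM 4 (7.70) and IL1B on VVM 1 (7.29). A link between them was not tested.

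VCAM1, an adhesion molecule, fell in IVM, at 9.77 to 11.69 in PM, 6.46, 7.21 and 7.15 in IVM and 10.39 to 11.75 in VVM. Its difference of IVM from VVM was -4.21 ± 0.44 (SE, adjusted p = 3.9e-04), and -4.63 with the leukocyte covariate. SOD2, the mitochondrial superoxide dismutase, was lower in IVM than in VVM by -1.99 ± 0.30 (SE, adjusted p = 0.00231). TNFAIP6, which links hyaluronan in the expanding cumulus, rose by 4.20 ± 0.50 (SE) in IVM and 4.88 ± 0.47 (SE) in VVM against PM. NOS2, the inducible nitric oxide synthase, fell by 4.33 ± 0.49 (SE) and 3.93 ± 0.45 (SE). MMP1, a collagenase, rose by 2.64 ± 0.80 (SE) in IVM, where it was 1.45 without IVM 1 and no longer called, and by 2.61 ± 0.74 (SE) in VVM, a call lost without VVM 1 (2.29) or VVM 4 (2.33). IL6 and CXCL8, named after their values were seen, passed no test and were highest on VVM 2, at 6.13 and 7.22.

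**Figure D4:**
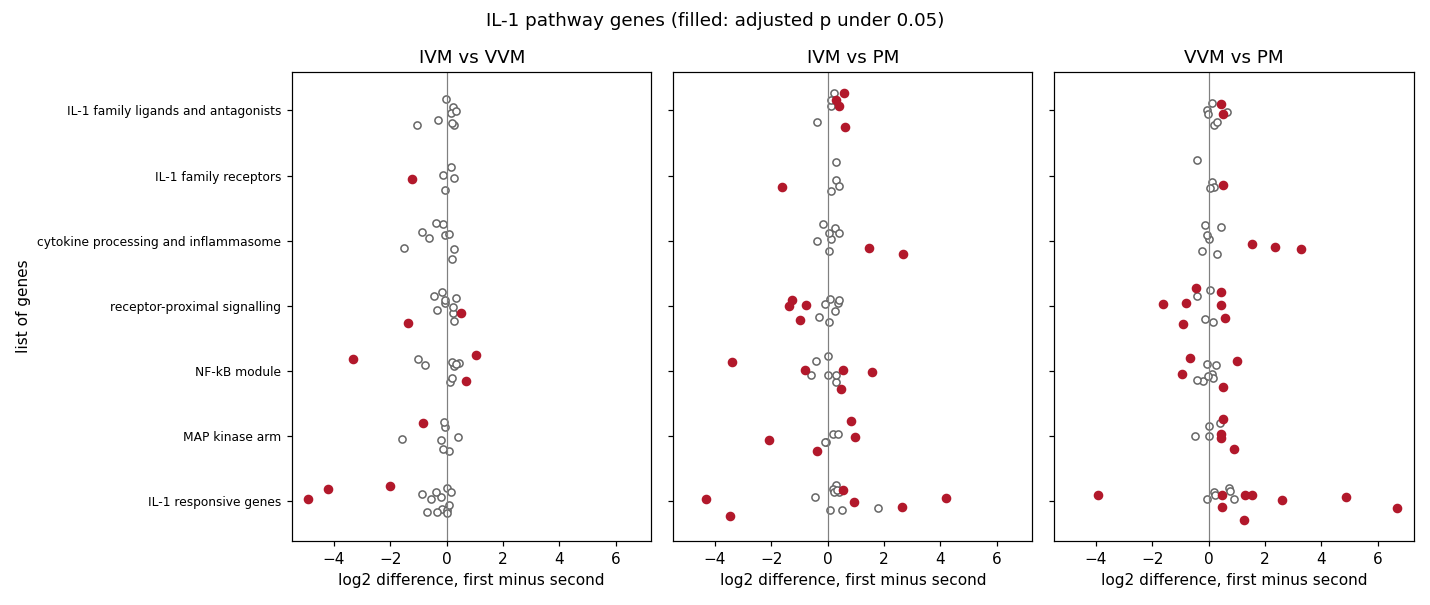
Log2 difference (x axis, first group minus second) of each of 67 pathway genes by list (y axis) in the 3 comparisons, with filled symbols for genes called by limma at an adjusted p below 0.05. Points are spread vertically within a list for legibility. PTX3 (-4.90) and VCAM1 (-4.21) lie farthest left for IVM against VVM, and PTX3 (6.69) farthest right for VVM against PM.

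The genes whose levels were most like each of the 4 were found by Pearson correlation over the 11 arrays among 10274 genes at or above the median level. They share the group structure of these arrays, and the correlations are a description. IL1B was most like TRAF3IP3 (r = 0.925), DAPK1, EPHA4, GPR84 and CCL3 (r = 0.905), the last a chemokine at 10.60 and 10.92 on VVM 2 and VVM 3 and 4.80 to 7.16 elsewhere. IL1RN was most like LCP1 (r = 0.967), CFD, ITLN1, TYROBP (r = 0.960) and FXYD5, and LCP1 encodes the leukocyte plastin. IL1R2 was most like SLC36A4 (r = 0.972), FNDC3A, CDV3, SYNPO2 and GNE (r = 0.943). SLC36A4, an amino acid transporter, read 6.94 to 7.76 in PM, 7.83 to 8.32 in IVM and 10.60, 9.58, 9.73 and 10.11 in VVM, with VVM 1 highest as for IL1R2. IL1RL1 was most like CUL3 (r = 0.965), ABTB2, CLCC1, TFAP2A and CD6 (r = 0.945).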

How the data were processed

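RNA of 11 cumulus cell samples (PM 4, IVM 3, VVM 4) was amplified from 50 ng per sample and hybridised to 1 rhesus Affymetrix array each, per the labels' protocols. The table deposited by the authors holds intensity after RMA in Affymetrix Expression Console, per the submitters' processing notes, which give no versions. RMA scales the arrays to a common distribution, so levels are relative within an array. The array medians of the deposited values still ran from 5.34 to 5.53. Log2 was taken with no pseudocount. Of 52865 probe sets, 99 controls were left out. Symbols came from the platform annotation: 24956 probe sets had 1 symbol, 361 several and 27449 none. All 14 probe sets of the 4 genes matched RefSeq by gene identifier.

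A linear model with 3 group means was fitted in limma 3.58.1 (R 4.3.3) over 52766 probe sets, two-sided, with Benjamini-Hochberg adjustment per comparison, and was tested on simulated data. A gene outside the 4 was represented by its brightest probe set. Named were all ligands and receptors, the called genes with the largest differences in each list and comparison (up to 4), and the 5 genes most like each member. The 4 genes and all lists were chosen with earlier results of these data known. The number of arrays limits the precision. Same-numbered arrays did not deviate together (10 pairs, r = -0.11 to 0.10). Alternatives varied scaling, filters, probe set choice, threshold, weights, arrays, replicate block and a leukocyte covariate. Sequences were not used here.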

Additional observations from a re-analysis of the deposited data

Results flagged for a closer look

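The level of IL1R2 in MmugDNA.19665.1.S1_at on PM 1 was 9.20, far from the other PM arrays, which lay between 8.43 and 8.52. It was 1 of 28 groups of 4 arrays examined for such a gap, and chance flags about 1 in 20. PM 1 also had the highest oocyte marker mean, at 7.37, whose part in this value was not tested.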

How the results depend on the processing

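The counts of 10, 26 and 30 pathway calls (IVM against VVM, IVM against PM, VVM against PM) were compared under 22 other settings. With a threshold of at least 2-fold added, both comparisons with PM gave 12. For VVM against PM, the count was 11 with the leukocyte covariate, 13 without PM 1, VVM 2 and VVM 3, and 19 to 29 when 1 array was left out, lowest without PM 1. All other settings kept the counts within 1.5 times. Of 55 named pathway calls, 34 held without each array in turn and 19 held in every setting.

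Averaging all probe sets of a gene gave IVM against VVM differences of -0.98 for IL1RN, -0.86 for IL1R2 and -0.35 for IL1RL1, an IVM against PM difference of 0.74 for IL1RL1, and VVM against PM differences of 1.19 for IL1RN, 1.12 for IL1R2 and 1.09 for IL1RL1. This setting mixes dim probe sets with bright ones by construction. Leaving out probe sets with names that mark cross-hybridization moved IL1B to another probe set, with 4.09 for IVM and 7.19 for VVM against PM. The leukocyte covariate gave IVM against VVM differences of -0.25 for IL1B, -0.48 for IL1RN and -2.37 for IL1R2, and VVM against PM differences of 1.43, 0.52 and 2.92, and turned NLRP3 to -0.36. Without PM 1, VVM 2 and VVM 3, IL1B and IL1RN were at -0.98 and -1.22 for IVM against VVM, and IL1B, IL1RN and IL1R2 at 2.39, 1.56 and 2.74 for VVM against PM. The cause of these shifts was not tested.

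Same-numbered arrays did not deviate together, but with 3 or 4 arrays per group that check cannot exclude a pairing. With the replicate block the counts were 8, 22 and 28, and the small IL1RN difference of IVM from PM turned from 0.29 to -0.13. The block also ended the NFKBIZ call for IVM against VVM. Levels below the array medians, such as IL1RN in PM and IVM, limit what a fold can show.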
